A study of Macaca fascicularis with 10 samples.

Results

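The WNT genes described here are 46 genes chosen by symbol: the WNT ligands, the frizzled receptors (FZD) with the co-receptors LRP5 and LRP6, the Dickkopf (DKK) and secreted frizzled-related (SFRP) inhibitors, the Dishevelled and TCF7 families, and APC, AXIN2, RNF43, NKD1, APCDD1 and SP5. They are 46 of the 14132 genes that had a probe set named for them alone, and the probe set with the highest mean log2 signal stood for each gene. By role they were 17 ligands, 11 receptors, 8 secreted inhibitors, 2 cytoplasmic components, 3 TCF factors and 5 targets or feedback genes. A probe set was tested where it lay above its array's median signal on at least 2 of the 10 arrays, which left 38 of the 46 WNT genes and 11639 genes in all. CTNNB1, LEF1, AXIN1, ZNRF3, DVL1, DVL3, FZD2, WNT3A and WNT9A also meet the rule, but no probe set was named for them alone in the annotation used, and they are not analysed here.

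RNA of cynomolgus monkey (Macaca fascicularis) cells was measured on 10 Affymetrix Rhesus Macaque arrays, 1 per sample. Haploid embryonic stem cells of parthenogenetic blastocysts (PG-haESC, with no paternal genome) gave 5 arrays, of which PG-haESC 1 to 4 were line MPH1 at passages 8, 11, 7 and 9 and PG-haESC 5 was line MPH2 at passage 4. Diploid embryonic stem cells of blastocysts made by intracytoplasmic sperm injection (ICSI ESC) gave 3 arrays, those of line MES1 at passage 12 and lines MES2 and MES3 at passage 4. Diploid female somatic cells labelled fibroblasts gave 2 arrays, at passages 14 and 15 under the line name MF. No genetic modification is named for any group, and the growth protocol places the haploid cells on feeder cells in medium with Y27635 and Thiazovivin, kinase inhibitors that aid stem cell survival. The sources used here do not name the feeder species. The arrays of MPH1 carry 2 codes, M1 and M2, and no label says whether arrays of 1 line are separate cultures, so p-values measure the spread between samples only, and some of that spread may be technical. Both arrays labelled fibroblast carry 1 line name, so the spread between fibroblast lines was not measured, and p-values against them speak for that line alone.

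WNT ligands are secreted lipid-modified proteins that bind frizzled receptors together with LRP5 or LRP6. In the canonical branch this binding halts the destruction complex built on APC and axin, so that beta-catenin accumulates and acts with TCF and LEF factors on target genes. SFRP proteins bind ligands, DKK1, DKK2 and DKK4 bind LRP5 and LRP6, and AXIN2, RNF43, NKD1 and APCDD1 act as feedback inhibitors. In primate embryonic stem cells canonical WNT activity is known for its part in the turn towards mesendoderm, and in skin it is known for its part in hair follicles and in the renewal of the epidermis.

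Signals are linear intensities that the authors scaled to a common trimmed mean, so they have no physical unit, and the array medians lay between 76.8 and 133. A signal at or below the median of its array is called dim here, because the deposited table gave no detection calls. Precision is limited by the small number of arrays. Pluripotency markers followed the labels, as the mean log2 signal of 13 pluripotency genes lay between 10.41 and 11.01 on the PG-haESC arrays and between 10.37 and 10.84 on the ICSI ESC arrays, against 5.85 and 5.96 on the arrays labelled fibroblast. Those 2 arrays had all 14 fibroblast and feeder markers above the median (mean log2 13.06 and 13.07), but also all 13 epidermal markers (13.79 and 13.80, against 4.91 to 6.35 on PG-haESC and 5.23 to 6.16 on ICSI ESC arrays). KRT1 and KRT2, keratins of differentiated epidermis, averaged 53834 and 50992 there. A comparison with the arrays labelled fibroblast is therefore a comparison with RNA that carried epidermal and fibroblast genes together, and which of these cells a WNT gene came from cannot be told apart. In RNA of whole cultures, fewer cells of a type and less RNA per cell cannot be told apart either. On the stem cell arrays the fibroblast and feeder list ran from 8.90 to 11.41 in PG-haESC and from 8.84 to 12.63 in ICSI ESC, highest on ICSI ESC 1. The 9 spike-in control probe sets averaged 13.43 on PG-haESC 2 and 13.15 on ICSI ESC 1, against 11.91 to 12.52 on the other 8 arrays.

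The haploid and the ICSI stem cells differed in no WNT gene past the threshold, and both differed from the arrays labelled fibroblast in a set of receptors, inhibitors and ligands that moved in both directions. Between PG-haESC and ICSI ESC, 0 of the 38 WNT genes tested were called higher and 0 lower (limma, adjusted p under 0.05), where 0.507% of all genes tested were called higher and 0.0687% lower. At an unadjusted p under 0.05 there were 7 of 38, and 8.79% of all genes, and with arrays taken as independent samples 1 gene, RNF43, was called. Between PG-haESC and the arrays labelled fibroblast, 8 of 38 were higher and 8 lower (21.1% each), where 23.0% of all genes tested were higher and 17.3% lower. Between ICSI ESC and the arrays labelled fibroblast, 7 were higher and 6 lower (18.4% and 15.8%), where 22.6% of all genes were higher and 17.0% lower. These shares are near those of all genes, so the number of calls does not set the WNT genes apart. The median log2 change of the WNT genes tested was -0.11 for PG-haESC over ICSI ESC, -0.01 for PG-haESC over fibroblast and -0.05 for ICSI ESC over fibroblast, against -0.02, 0.06 and 0.08 over all genes tested. Over all 46 with no filter the medians were -0.18, -0.24 and -0.28, against -0.02, 0.03 and 0.06 over all genes. The comparisons of both stem cell groups with the arrays labelled fibroblast share those 2 arrays, so their values stand side by side below and are not independent. Log2 changes are given with their standard error (SE) and weight the arrays by line, so they can differ slightly from ratios of the printed signals.

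**Figure D1:**
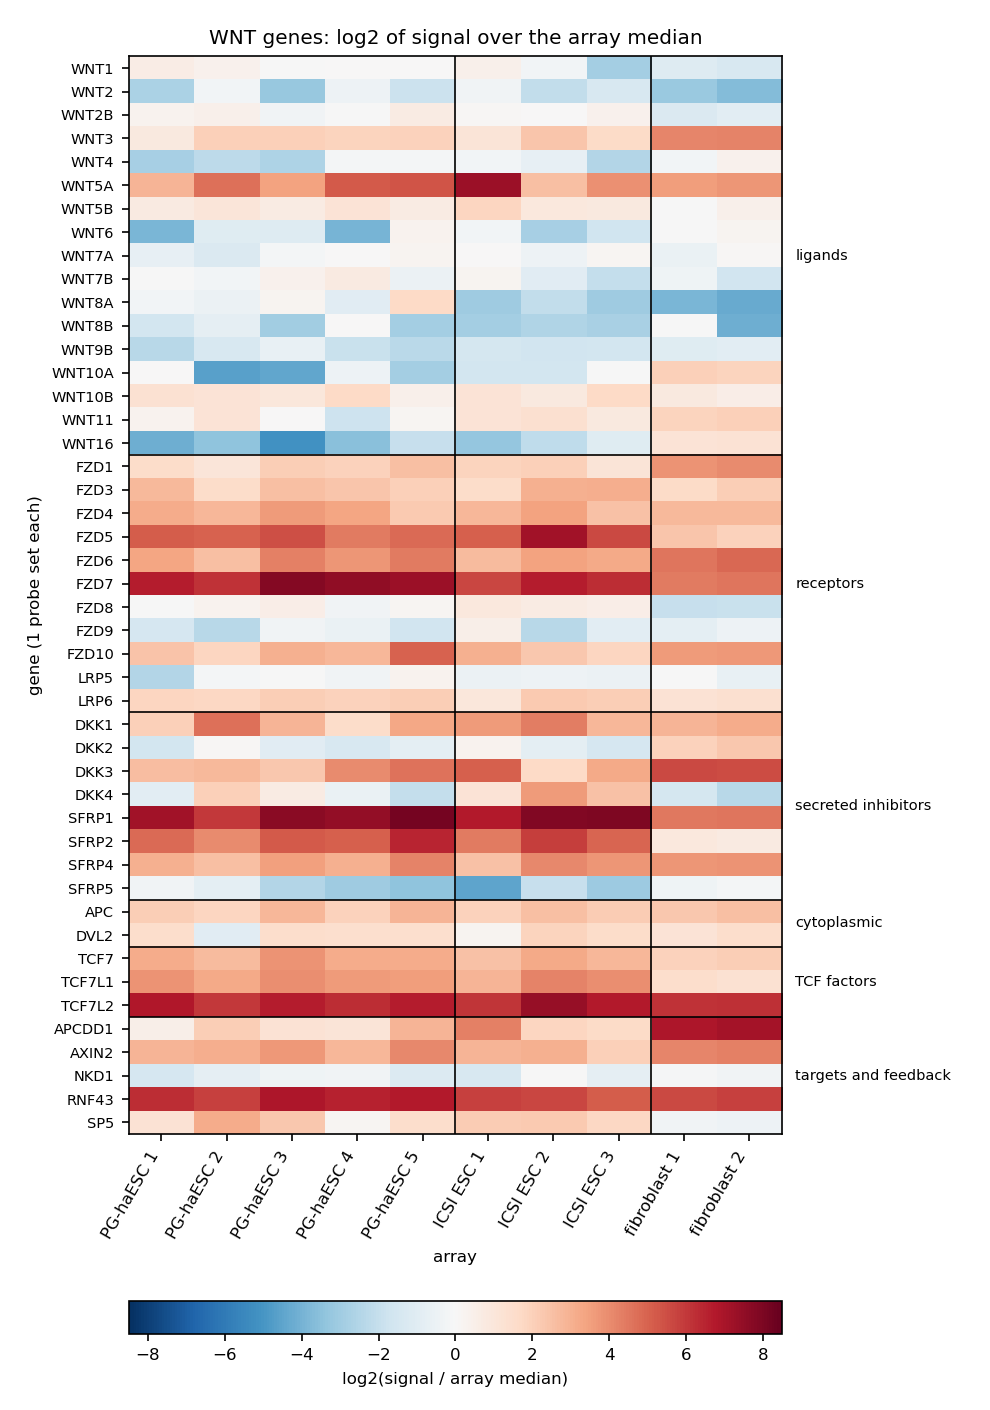
Log2 of signal over the array's median (colour, 0 is the median) for the 46 WNT genes (rows, grouped by role) on the 10 arrays (columns, PG-haESC, ICSI ESC and fibroblast from left to right). FZD5, FZD7, SFRP1, SFRP2 and TCF7L1 are redder on all 8 stem cell arrays than on the 2 arrays labelled fibroblast, and WNT3, FZD1, FZD6, APCDD1 and AXIN2 are redder on those 2. Colours can be compared along a row but not between rows.

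Among the receptors, 3 of 9 tested were higher and 2 lower than on the arrays labelled fibroblast, in PG-haESC as in ICSI ESC, where 23.0% and 17.3% (PG-haESC) and 22.6% and 17.0% (ICSI ESC) of all genes tested were. FZD7, a frizzled known for its high level in human pluripotent stem cells, had signals of 9668, 9159.8, 17127, 17919 and 12059.8 on PG-haESC 1 to 5 and 5939.6, 7932 and 7452 on ICSI ESC 1 to 3, against 2599.9 and 2642 on the arrays labelled fibroblast. Every PG-haESC array lay above every ICSI ESC array, and these above both arrays labelled fibroblast. FZD7 was 4.80-fold higher in PG-haESC than in fibroblast (log2 change 2.26 ± 0.34, adjusted p = 0.00029) and 2.69-fold higher in ICSI ESC (log2 change 1.43 ± 0.34, adjusted p = 0.0068), and both of its probe sets passed in each comparison. Between the stem cell groups its log2 change was 0.84 with a 95% interval from 0.22 to 1.45, which did not pass over all probe sets tested (adjusted p = 0.39). FZD5, another frizzled of the canonical branch, had 3364, 4272, 3552, 2055 and 2190.4 in PG-haESC and 3915, 10659 and 4740.1 in ICSI ESC, against 631 and 429 in fibroblast. All stem cell arrays lay above the arrays labelled fibroblast, and ICSI ESC 2 was highest. FZD5 was 5.45-fold higher in PG-haESC (log2 change 2.45 ± 0.46, adjusted p = 0.0014) and 11.2-fold higher in ICSI ESC (log2 change 3.48 ± 0.47, adjusted p = 0.00013) than in fibroblast. Its second tested probe set passed for ICSI ESC (log2 change 1.76, adjusted p = 0.025) but not for PG-haESC (0.77, adjusted p = 0.31). The signals of PG-haESC over ICSI ESC differed by a log2 change of -1.04 (95% interval -1.87 to -0.21, adjusted p = 0.47), and the 2 groups overlapped.

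FZD8, a receptor of the same branch, stood near the array medians with 92.5, 164, 113, 78.7 and 86.6 in PG-haESC and 214, 126 and 141 in ICSI ESC, against 30.8 and 29.2 in fibroblast, where it was dim on both arrays. It passed as higher in PG-haESC (log2 change 1.75 ± 0.60, adjusted p = 0.040), although 2 of the 5 PG-haESC signals were dim too and no fold can be given, and in ICSI ESC, at least 1.35-fold (log2 change 2.38 ± 0.60, adjusted p = 0.0088). The PG-haESC call was lost when any of fibroblast 1, fibroblast 2, PG-haESC 1, PG-haESC 2, PG-haESC 3 or ICSI ESC 3 was left out (adjusted p from 0.053 to 0.093), and with dim signals raised to the array median its log2 change was -0.15. FZD1 was on the other side, with 277, 276, 333, 368 and 455 in PG-haESC and 444, 307 and 206 in ICSI ESC, against 1678 and 1786 in fibroblast. It was 4.94-fold lower in PG-haESC (log2 change -2.30 ± 0.36, adjusted p = 0.00041) and 5.70-fold lower in ICSI ESC (log2 change -2.51 ± 0.37, adjusted p = 0.00024). Its other 3 tested probe sets did not pass, and with the mean of all its probe sets the calls were lost (adjusted p = 0.15 and 0.34). Of the 3, 2 were lower too, and 1 ran the other way (log2 change 0.49 in PG-haESC and 0.34 in ICSI ESC, adjusted p = 0.35 and 0.54). The call of FZD1 therefore rests on 1 probe set. FZD6, a frizzled known from mouse for planar cell polarity and hair patterning, had 966, 795, 1531, 1258 and 1659.6 in PG-haESC and 749, 836 and 895 in ICSI ESC, against 2891 and 3218 in fibroblast. It was 2.43-fold lower in PG-haESC (log2 change -1.28 ± 0.33, adjusted p = 0.0098) and 3.70-fold lower in ICSI ESC (log2 change -1.89 ± 0.33, adjusted p = 0.00091), and no stem cell array reached the arrays labelled fibroblast. Centred on array medians, FZD6 did not pass for PG-haESC, and its log2 change was -0.97.

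FZD3, FZD4, FZD10 and LRP6 did not pass in any of the 3 comparisons. FZD10, a frizzled of restricted expression, had 524, 475, 646, 676 and 2522 in PG-haESC, 966, 378 and 334 in ICSI ESC and 1516 and 1417 in fibroblast. PG-haESC 5, the only array of line MPH2, lay above all others, and without it the call of PG-haESC against fibroblast passed as lower (log2 change -1.35, adjusted p = 0.034, against -0.67 with it). ICSI ESC lay below fibroblast without overlap (log2 change -1.56 ± 0.64, adjusted p = 0.083), which passed when ICSI ESC 1 or PG-haESC 5 was left out (adjusted p = 0.021 and 0.014). FZD3, which mouse axon tracts require, had 654, 384, 454, 494 and 312 in PG-haESC, 346, 617 and 828 in ICSI ESC and 376 and 462 in fibroblast, with all groups overlapping. Another of its 3 tested probe sets passed as higher in both, with 369 to 542 on the PG-haESC arrays and 344 to 415 on the ICSI ESC arrays, against 115 and 104 on the arrays labelled fibroblast (log2 changes 2.05, adjusted p = 0.00027, and 1.78, adjusted p = 0.00083). FZD4, the receptor of norrin, ranged from 369 to 988 in PG-haESC and from 534 to 819 in ICSI ESC, against 742 and 833 in fibroblast. LRP6, the co-receptor, had 339, 453, 332, 375 and 335 in PG-haESC, 227, 365 and 416 in ICSI ESC and 289 and 287 in fibroblast. Its second probe set read differently, with 11.6 to 107 on the PG-haESC arrays and 63.2 to 110 on the ICSI ESC arrays, against 1401 and 1515 on the arrays labelled fibroblast (log2 changes -4.98, adjusted p = 0.00058, and -4.20, adjusted p = 0.0020). The direction of LRP6 against fibroblast, and whether FZD3 passed, therefore depend on the probe set. LRP5 and FZD9 were dim on all but 1 array each and were not tested.

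**Figure D2:**
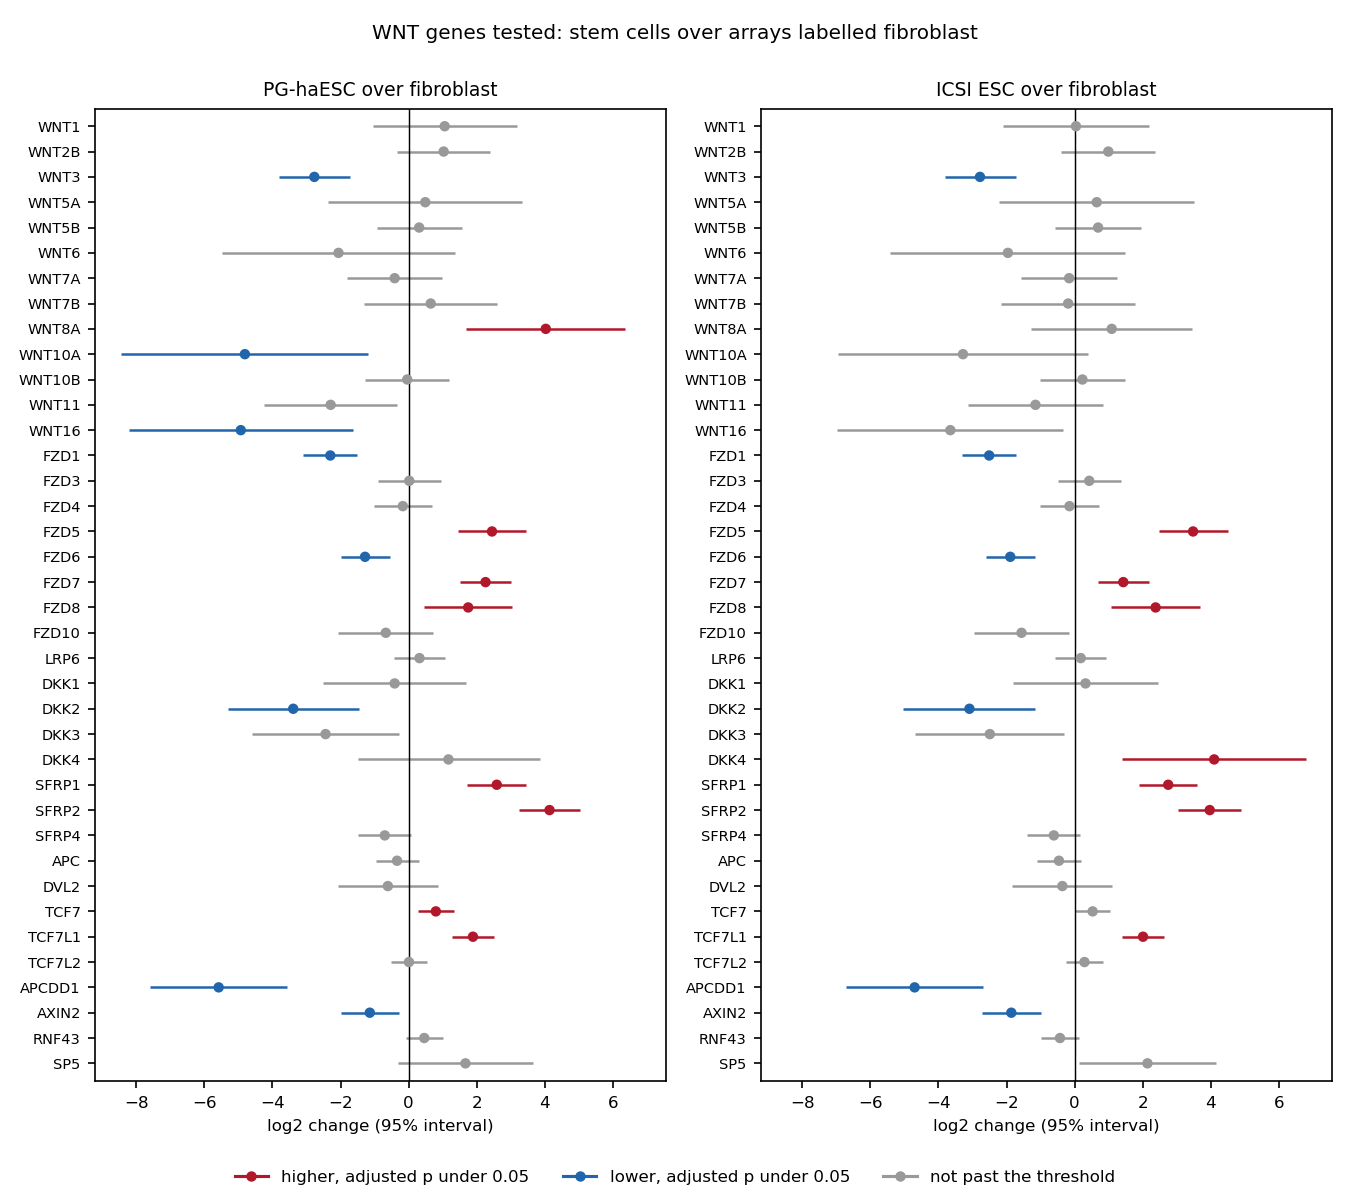
Log2 change (points) with its 95% interval (lines) of the 38 WNT genes tested, PG-haESC over fibroblast on the left and ICSI ESC over fibroblast on the right. Red genes passed as higher (8 and 7 genes), blue genes as lower (8 and 6) and grey genes did not pass. The intervals of the ligands WNT10A and WNT16 and of DKK4 are the widest among the coloured genes, those of TCF7 and TCF7L1 among the narrowest.

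Among the secreted inhibitors, SFRP1 and SFRP2 were higher in both stem cell groups than on the arrays labelled fibroblast, and DKK2 was lower. SFRP1, which binds WNT ligands outside the cell, had 13880.3, 8349, 15616, 16940.3 and 22372 in PG-haESC and 12239, 18401 and 23584 in ICSI ESC, against 2679.7 and 2522 in fibroblast. The lowest stem cell array, PG-haESC 2, was still above the arrays labelled fibroblast. SFRP1 was 6.01-fold higher in PG-haESC (log2 change 2.59 ± 0.39, adjusted p = 0.00031) and 6.71-fold higher in ICSI ESC (log2 change 2.75 ± 0.40, adjusted p = 0.00022), and all 3 of its probe sets passed. SFRP2, its close relative, had 2683, 2132, 2841, 3192 and 6888 in PG-haESC and 2524, 4420.4 and 2931 in ICSI ESC, against 224 and 187 in fibroblast. It was 17.7-fold higher in PG-haESC (log2 change 4.14 ± 0.42, adjusted p = 1.4e-05) and 15.6-fold higher in ICSI ESC (log2 change 3.97 ± 0.42, adjusted p = 2.3e-05). Between the stem cell groups the log2 changes were small for both, -0.16 for SFRP1 (95% interval -0.86 to 0.55) and 0.18 for SFRP2 (95% interval -0.57 to 0.93). SFRP4 did not pass, with 765 to 1466 in PG-haESC and 653 to 1304 in ICSI ESC, against 1522 and 1623 in fibroblast. With 1 array left out it passed only for PG-haESC, as lower, without ICSI ESC 1 or PG-haESC 5 (adjusted p = 0.036 and 0.029). A further probe set of SFRP4, with 14.98 to 95.7 in PG-haESC and 5.54 to 102 in ICSI ESC, against 506 and 633 in fibroblast, passed as lower in both groups (log2 change -4.44, adjusted p = 0.020, and -4.25, adjusted p = 0.026), and with passage as a covariate SFRP4 passed as lower in both (adjusted p = 0.0017 and 0.0028), as it did averaged over its probe sets (adjusted p = 0.023 and 0.029). SFRP5 was dim on every array.

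The Dickkopf genes differed from each other in pattern. DKK2 had 32.4, 142, 40.4, 37.7 and 44.2 in PG-haESC and 143, 43.8 and 35.3 in ICSI ESC, against 481 and 551 in fibroblast. Only PG-haESC 2 and ICSI ESC 1 were not dim among the stem cell arrays. DKK2 passed as lower in PG-haESC (log2 change -3.39 ± 0.89, adjusted p = 0.011) and in ICSI ESC (log2 change -3.09 ± 0.89, adjusted p = 0.018), with both probe sets passing, and no fold is given because most stem cell signals were dim. Without fibroblast 2 neither call held (adjusted p = 0.056 and 0.084), nor did that of ICSI ESC without fibroblast 1 or ICSI ESC 3 (0.065 and 0.054). DKK3, a divergent member of the family, spread from 389 to 1921 in PG-haESC and from 252 to 4054 in ICSI ESC, against 5067 and 5938 in fibroblast. All stem cell arrays lay below, but neither comparison passed (adjusted p = 0.080 and 0.077). Without ICSI ESC 1 both did (adjusted p = 0.0091 and 0.0031), and that of PG-haESC also passed without PG-haESC 5 or ICSI ESC 2 (0.048 and 0.028). Of its other 4 tested probe sets, 1 passed as lower in PG-haESC (log2 change -5.04, adjusted p = 0.0069) and another in ICSI ESC (-3.15, adjusted p = 0.044).

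DKK4, itself known as a canonical target, had 52.2, 539, 128, 63.8 and 19.2 in PG-haESC and 268, 964 and 542 in ICSI ESC, against 43.1 and 21.2 in fibroblast. It was above the array median on all 3 ICSI ESC arrays, on PG-haESC 2 and 3, and on neither array labelled fibroblast. DKK4 was at least 4.49-fold higher in ICSI ESC than in fibroblast (log2 change 4.10 ± 1.24, adjusted p = 0.023), a call lost without fibroblast 2, ICSI ESC 2 or ICSI ESC 3 (adjusted p = 0.097, 0.067 and 0.054). For PG-haESC it did not pass (log2 change 1.17 ± 1.23, adjusted p = 0.52). DKK1, the founding Dickkopf, had 384, 3382, 582, 286 and 774 in PG-haESC and 1477, 1596 and 687 in ICSI ESC, against 898 and 990.0 in fibroblast. PG-haESC 2 was highest of all arrays, the other 4 PG-haESC arrays lay below both arrays labelled fibroblast, and no comparison passed (adjusted p from 0.80 to 0.96).

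All 3 TCF factors were above the median on every array. TCF7L1, which acts mainly as a repressor of targets in pluripotent cells, had 1329.8, 1233, 1232, 1154 and 929.5 in PG-haESC and 871, 1423 and 1498 in ICSI ESC, against 337 and 274 in fibroblast. No stem cell array came near the arrays labelled fibroblast. It was 3.71-fold higher in PG-haESC (log2 change 1.89 ± 0.28, adjusted p = 0.00028) and 4.04-fold higher in ICSI ESC (log2 change 2.01 ± 0.29, adjusted p = 0.00019), with a log2 change of -0.12 between the stem cell groups (95% interval -0.63 to 0.38). TCF7, which acts mainly as an activator, had 839, 857, 1079.9, 837 and 708 in PG-haESC and 672, 724 and 682 in ICSI ESC, against 479.6 and 480.2 in fibroblast. It was 1.74-fold higher in PG-haESC (log2 change 0.80 ± 0.24, adjusted p = 0.022), a call lost without fibroblast 1, fibroblast 2 or PG-haESC 2 (adjusted p = 0.077, 0.075 and 0.051). Its second tested probe set did not pass (log2 change 0.59, adjusted p = 0.71). The call was also lost with the mean of its probe sets (adjusted p = 0.32) and with arrays averaged per line (0.17). In ICSI ESC TCF7 did not pass (log2 change 0.53 ± 0.24, adjusted p = 0.12), though no ICSI ESC array overlapped with fibroblast. TCF7L2, a TCF factor of both activating and repressing forms, had overlapping signals in the 3 groups, with 10888, 8402, 7939, 7514 and 7885 in PG-haESC, 7824, 13054 and 10164 in ICSI ESC and 8469.5 and 8124 in fibroblast. Its log2 changes were -0.28 for PG-haESC over ICSI ESC, 0.01 for PG-haESC over fibroblast and 0.29 for ICSI ESC over fibroblast, with 95% intervals of -0.72 to 0.17, -0.53 to 0.55 and -0.25 to 0.83. In the cytoplasm, APC, the scaffold of the destruction complex, and DVL2, which passes on the receptor's signal, did not pass in any comparison, with log2 changes from -0.61 to 0.12.

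Most ligands were near or below the array median. Of 17, 4 were not tested (WNT2, WNT4, WNT8B and WNT9B, each dim on all but at most 1 array). Of the 13 tested, 1 was higher and 3 lower in PG-haESC than in fibroblast, against 0 and 1 in ICSI ESC. Of all genes tested, 23.0% were higher and 17.3% lower in PG-haESC, and 22.6% and 17.0% in ICSI ESC. WNT3, a canonical ligand needed for the primitive streak in mouse, had 169, 540.3, 312, 358 and 296 in PG-haESC and 256, 396 and 291 in ICSI ESC, against 2185 and 2047 in fibroblast. All 8 stem cell arrays were low, it was 6.80-fold lower in PG-haESC (log2 change -2.77 ± 0.48, adjusted p = 0.00077) and 6.85-fold lower in ICSI ESC (log2 change -2.78 ± 0.48, adjusted p = 0.00082), and all 3 of its probe sets passed in both. WNT16, a ligand known for bone mass, had 5.42, 12.4, 2.17, 8.14 and 20.2 in PG-haESC and 11.9, 16.9 and 46.2 in ICSI ESC, all dim, against 274 and 256 in fibroblast. It was at least 2.81-fold lower in PG-haESC (log2 change -4.93 ± 1.52, adjusted p = 0.025), while ICSI ESC did not pass (log2 change -3.65 ± 1.53, adjusted p = 0.087). WNT16 met the filter only through the 2 arrays labelled fibroblast, where it was high, so its call is not independent of the filter. Without fibroblast 1 or 2 it was above the median on too few arrays to be tested. WNT10A, mutated in human ectodermal dysplasias, had 98.6, 5.30, 3.65, 72.6 and 10.3 in PG-haESC and 39.8, 26.1 and 91.4 in ICSI ESC, against 485 and 405 in fibroblast. All but PG-haESC 1 among the stem cell arrays were dim, and PG-haESC 1 lay only log2 0.04 above its median. WNT10A thus met the filter through the 2 arrays labelled fibroblast, where it was high, and its call is not independent of the filter either. It passed as lower in PG-haESC (log2 change -4.81 ± 1.67, adjusted p = 0.043) and not in ICSI ESC (log2 change -3.28 ± 1.69, adjusted p = 0.16). The WNT10A call was lost without fibroblast 1, fibroblast 2, PG-haESC 2, PG-haESC 3, PG-haESC 5 or ICSI ESC 3 (adjusted p from 0.052 to 0.16). These 3 ligands were low where the epidermal list was low as a whole, and the part of epidermal cells in their difference was not tested.

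WNT8A, a ligand of early embryos, had 82.4, 93.8, 91.0, 48.3 and 251 in PG-haESC, 14.7, 18.3 and 11.6 in ICSI ESC and 8.34 and 5.61 in fibroblast. All ICSI ESC and fibroblast arrays and 3 of 5 PG-haESC arrays were dim, and PG-haESC 5 was highest. WNT8A passed as higher in PG-haESC than in fibroblast (log2 change 4.03 ± 1.08, adjusted p = 0.012), with no fold because these signals lie so near the medians. That call was lost without fibroblast 2 (adjusted p = 0.066). WNT8A met the filter only through PG-haESC 3 and PG-haESC 5, in the group where it was high, so its call is not independent of the filter. Without either of these arrays the gene was not tested. WNT11, which acts in convergent extension of frog and fish embryos, had 118, 299, 80.8, 27.7 and 89.2 in PG-haESC and 258, 196 and 168 in ICSI ESC, against 455 and 451 in fibroblast. All stem cell arrays lay below, but neither comparison passed (log2 change -2.29 ± 0.90, adjusted p = 0.070, and log2 change -1.15 ± 0.91, adjusted p = 0.37). PG-haESC passed under 10 of 25 alternative settings. Among these were the fits without PG-haESC 2, PG-haESC 4 or ICSI ESC 1 (adjusted p = 0.029, 0.040 and 0.036), with arrays averaged per line (0.019) and with dim signals set to the median (0.015). WNT5A, the main non-canonical ligand, had 707, 3322, 846, 3514 and 3227 in PG-haESC, 17890.3, 459.9 and 1409.8 in ICSI ESC and 1422 and 1461 in fibroblast. Its ICSI ESC arrays alone spanned the range of all other arrays, and no comparison passed. The other tested ligands (WNT1, WNT2B, WNT5B, WNT6, WNT7A, WNT7B and WNT10B) did not pass in any comparison, and their signals ran from 6.06 to 414 over all arrays.

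Among the targets and feedback genes, AXIN2 and APCDD1 were lower in both stem cell groups than on the arrays labelled fibroblast. AXIN2, a widely used readout of canonical WNT activity, had 706, 1136, 985, 666 and 1332 in PG-haESC and 875, 618 and 391 in ICSI ESC, against 2148 and 2184 in fibroblast. It was 2.21-fold lower in PG-haESC (log2 change -1.14 ± 0.39, adjusted p = 0.041) and 3.64-fold lower in ICSI ESC (log2 change -1.86 ± 0.40, adjusted p = 0.0031), with 2 of its 4 tested probe sets passing in each. For PG-haESC the call was lost without fibroblast 1 or 2 or any array of MPH1 (adjusted p from 0.056 to 0.11). APCDD1, a membrane-bound inhibitor mutated in a human hair loss disorder, had 135, 559, 179, 206 and 575 in PG-haESC and 2253, 276 and 292 in ICSI ESC, against 14456 and 15053 in fibroblast. It was 48.0-fold lower in PG-haESC (log2 change -5.58 ± 0.92, adjusted p = 0.00057) and 26.0-fold lower in ICSI ESC (log2 change -4.70 ± 0.93, adjusted p = 0.0020), and ICSI ESC 1 was the highest stem cell array. SP5, a transcription factor induced by canonical WNT, had 226, 1207, 372, 107 and 217 in PG-haESC and 533, 356 and 324 in ICSI ESC, against 97.9 and 82.0 in fibroblast, where both arrays were dim. All stem cell arrays lay above, but neither comparison passed (log2 change 1.67 ± 0.91, adjusted p = 0.19, and log2 change 2.14 ± 0.92, adjusted p = 0.096). ICSI ESC passed under 6 of 25 alternative settings. Among these were the fits without PG-haESC 2 or PG-haESC 4 (adjusted p = 0.030 and 0.049), with arrays averaged per line (0.016) and centred on array medians (0.029). NKD1 was dim on all but at most 1 array and was not tested.

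**Figure D3:**
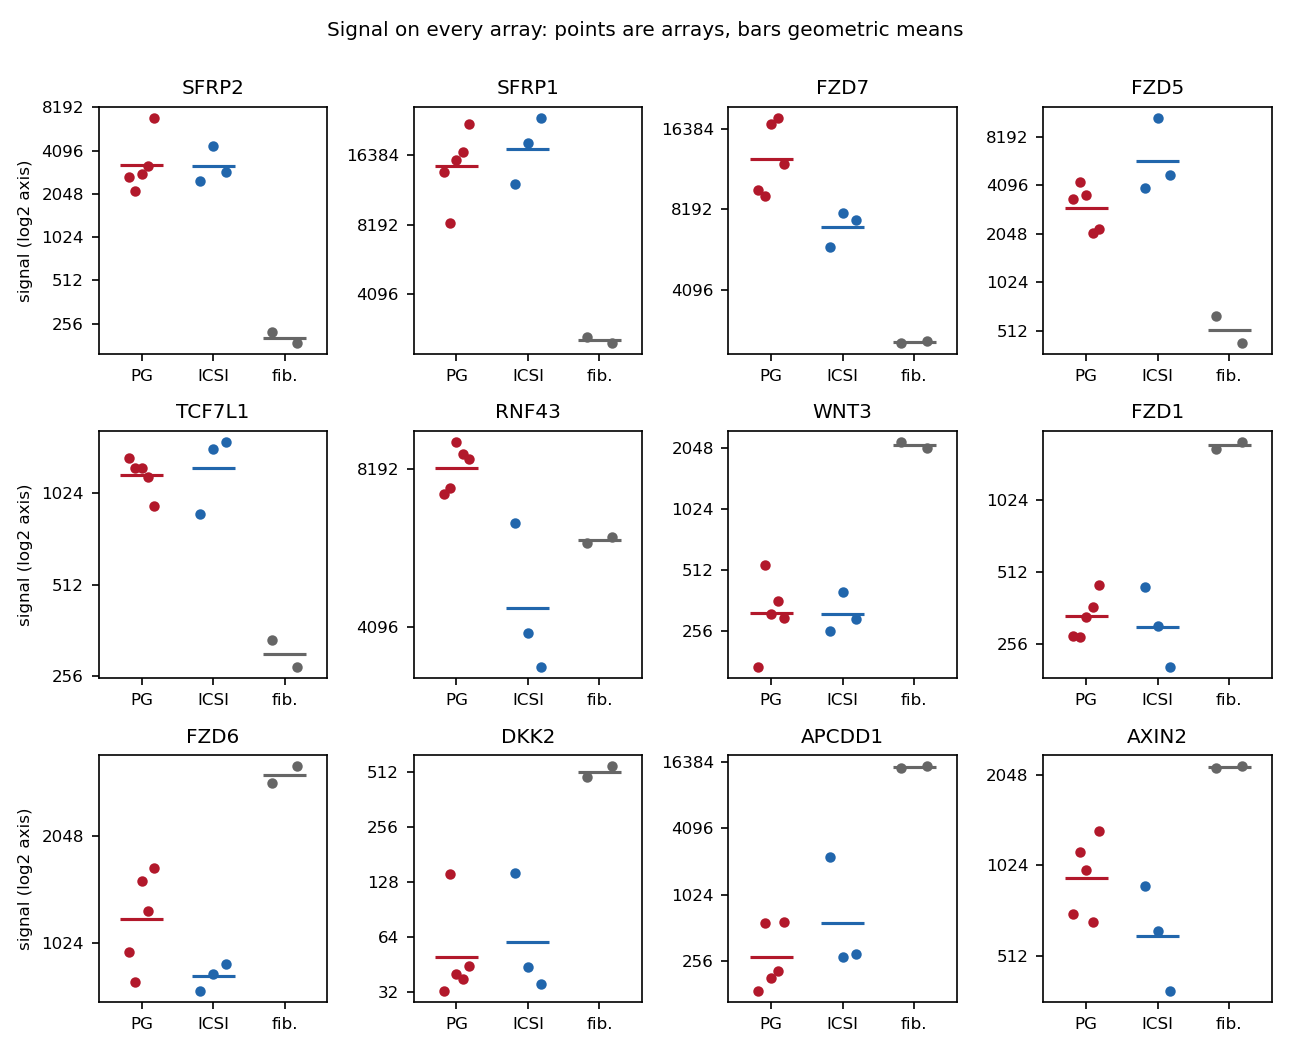
Signal (vertical log2 axis, 1 scale per gene) of 12 WNT genes on every array of PG-haESC (PG, n = 5), ICSI ESC (ICSI, n = 3) and the cells labelled fibroblast (fib., n = 2), with points for arrays and bars for geometric means. SFRP2, SFRP1, FZD7, FZD5 and TCF7L1 have all stem cell points above the fibroblast points, and WNT3, FZD1, FZD6, DKK2, APCDD1 and AXIN2 have all of them below. For RNF43 every PG-haESC point is above every ICSI ESC point.

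The comparison of PG-haESC with ICSI ESC sets haploid stem cells with no paternal genome beside diploid ones. The groups share no line and differ in passage, so ploidy, parental origin, line and passage cannot be told apart. Among the WNT genes the smallest p-values were those of RNF43, WNT8A and FZD7, and in these genes every PG-haESC array lay above every ICSI ESC array. That was 3 of the 38 WNT genes tested, beside 5.07% of all genes, and 0 of 38 had every PG-haESC array below, beside 3.22% of all genes. Of the 3, WNT8A met the filter only through PG-haESC arrays. RNF43, a ubiquitin ligase that removes frizzled receptors from the membrane, had 7337, 7520.3, 9192, 8728 and 8534 in PG-haESC and 6461, 4002 and 3441 in ICSI ESC, against 5907 and 6088 in fibroblast. Its log2 change was 0.89 (95% interval 0.44 to 1.34), the smallest p of the WNT genes at 0.0010 but not past the threshold over all probe sets (adjusted p = 0.11). RNF43 passed when ICSI ESC 1 was left out (adjusted p = 0.0065). Against fibroblast it passed in neither group (log2 change 0.46 ± 0.25, adjusted p = 0.19 in PG-haESC, and log2 change -0.43 ± 0.26, adjusted p = 0.23 in ICSI ESC), but without ICSI ESC 1 it was higher in PG-haESC (adjusted p = 0.030) and lower in ICSI ESC (adjusted p = 0.0082). Of its other 2 tested probe sets, 1 had a log2 change of 0.59 between PG-haESC and ICSI ESC (adjusted p = 0.66) and the other of 0.04. The probe set of 0.04 passed as lower against fibroblast in both (log2 change -1.90 in PG-haESC and -1.93 in ICSI ESC, adjusted p = 0.021 each), so the direction of RNF43 in PG-haESC against fibroblast depends on the probe set. WNT8A had a log2 change of 2.93 (95% interval 1.01 to 4.86, adjusted p = 0.28), at least 1.02-fold with dim ICSI ESC signals raised to their array medians.

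The next by p were DKK4 on the lower side (log2 change -2.93 ± 1.02, adjusted p = 0.42, 95% interval -5.13 to -0.72), FZD5 (adjusted p = 0.47), and FZD6 and AXIN2 on the upper side (log2 change 0.61 ± 0.27, adjusted p = 0.65, and log2 change 0.72 ± 0.32, adjusted p = 0.66). For DKK4, 4 of 5 PG-haESC arrays lay below all ICSI ESC arrays and PG-haESC 2 lay among them. Without the 2 arrays of highest spike-in signal, PG-haESC 2 and ICSI ESC 1, a choice made after the data had been seen, RNF43 passed as higher (log2 change 1.18, adjusted p = 0.0084) and DKK4 as lower (log2 change -3.93, adjusted p = 0.045). Without those 2 arrays 1.2% of all genes passed as higher and 0.396% as lower. FZD10 on the upper side and WNT11, TCF7L2, FZD8 and FZD3 on the lower side completed the 6 genes of smallest p in each direction, with log2 changes from -1.14 to 0.89 and adjusted p from 0.84 to 0.94. For 27 of the 38 genes the 95% interval reached past a 2-fold difference on at least 1 side, and for 9 of them on both sides, so the lack of calls does not show that the groups are alike. The other 11 intervals stayed within 2-fold, among them those of TCF7L1, TCF7L2 and APC, which lay inside -0.72 to 0.64.

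**Figure D4:**
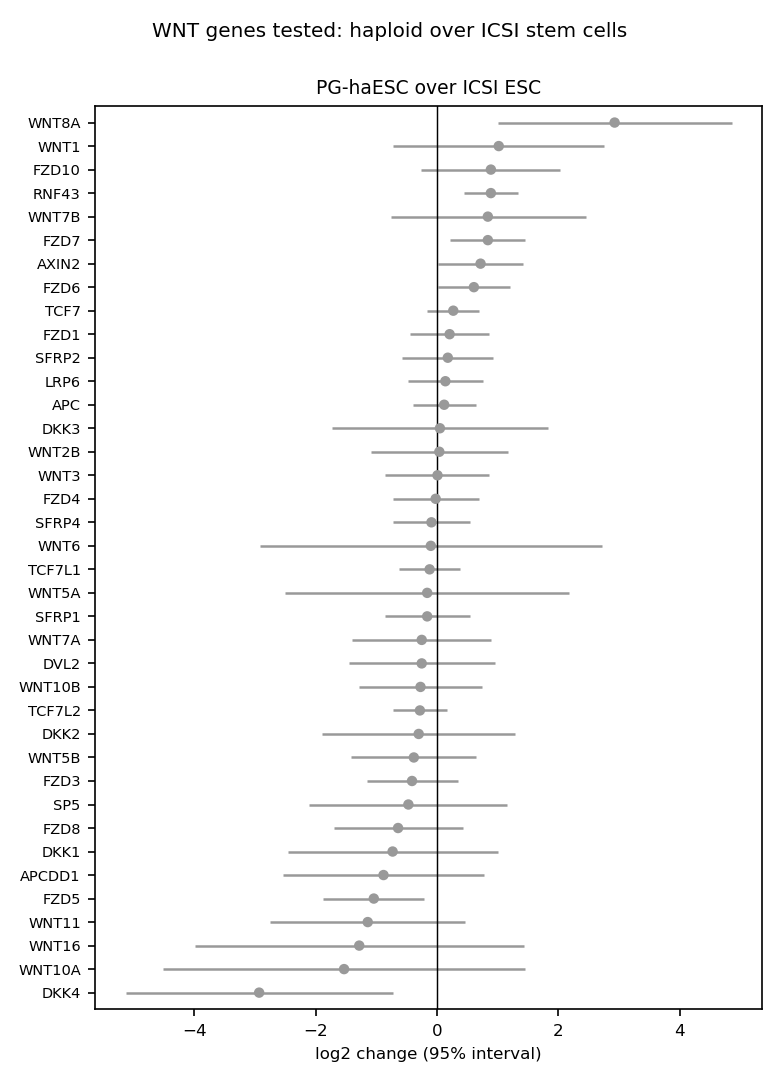
Log2 change of PG-haESC over ICSI ESC (points) with 95% intervals (lines) for the 38 WNT genes tested, from the highest to the lowest. No gene passed after adjustment over all probe sets, so all are grey. The intervals of WNT8A, RNF43, FZD7, AXIN2 and FZD6 lie above 0 and those of FZD5 and DKK4 below it before adjustment.

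Within the stem cells, the spread from array to array differed widely between WNT genes. Of the 46, 25 lay above the median on all 8 stem cell arrays, and their median range over those arrays was 1.57 on the log2 scale, against 0.93 over 8131 genes above the median on all 8. This is a description of these arrays, with no test. The widest were WNT5A (5.28, or 38.9-fold), APCDD1 (4.06), DKK3 (4.01), DKK1 (3.57), SP5 (3.50) and FZD10 (2.91). The narrowest were APC (0.67), TCF7 (0.68), TCF7L1 (0.78) and TCF7L2 (0.80).

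The variable genes did not peak on the same array. Of the 25 WNT genes above the median on all 8 stem cell arrays, 7 were highest on PG-haESC 5, 4 on ICSI ESC 1 and 4 on PG-haESC 2. Of all genes above the median on all 8, 15.6% were highest on ICSI ESC 1 and 14.3% on PG-haESC 2. The number of peaks on those 2 arrays therefore does not set the WNT genes apart. The share of all genes highest on PG-haESC 5 was not computed, so the 7 WNT genes there have no background to be read against. WNT5A, APCDD1, DKK3, DKK2 and WNT5B were highest on ICSI ESC 1, where the fibroblast and feeder list stood at 12.63 against 8.84 to 11.41 on the other 7 stem cell arrays, and WNT5A and DKK3 were lowest on ICSI ESC 2, where the list was lowest. DKK1, SP5, WNT3 and WNT11 had their highest stem cell signal on PG-haESC 2. Relative to the array median, WNT3 and WNT11 were instead highest on ICSI ESC 2 (log2 2.37 and 1.35, against 2.03 and 1.17 on PG-haESC 2). The primitive streak and mesoderm list of 10 genes was highest among stem cell arrays on PG-haESC 2 (8.40, against 6.16 to 7.91). DKK1, SP5 and WNT11 were lowest on PG-haESC 4, where that list was 6.50. DKK4 was highest on ICSI ESC 2 and lowest on PG-haESC 5, where the primitive streak list was lowest. The endoderm list of 10 genes was also highest on ICSI ESC 2 (10.75), followed by PG-haESC 2 (10.15), and stood at 7.81 on PG-haESC 5 and lowest on PG-haESC 4 (7.64). PG-haESC 2 and ICSI ESC 1 were also the arrays of highest spike-in signal. The part of feeder cells, of differentiating or endoderm cells or of the spike-in level in these ranges was not tested. Line MPH2, with its 1 array PG-haESC 5, lay outside the 4 MPH1 arrays for several genes, and with 1 array a line and a sample cannot be told apart. FZD10 had 2522 there against 475 to 676 in MPH1, SFRP2 had 6888 against 2132 to 3192, and FZD4 had 369 against 871 to 988.

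**Figure D5:**
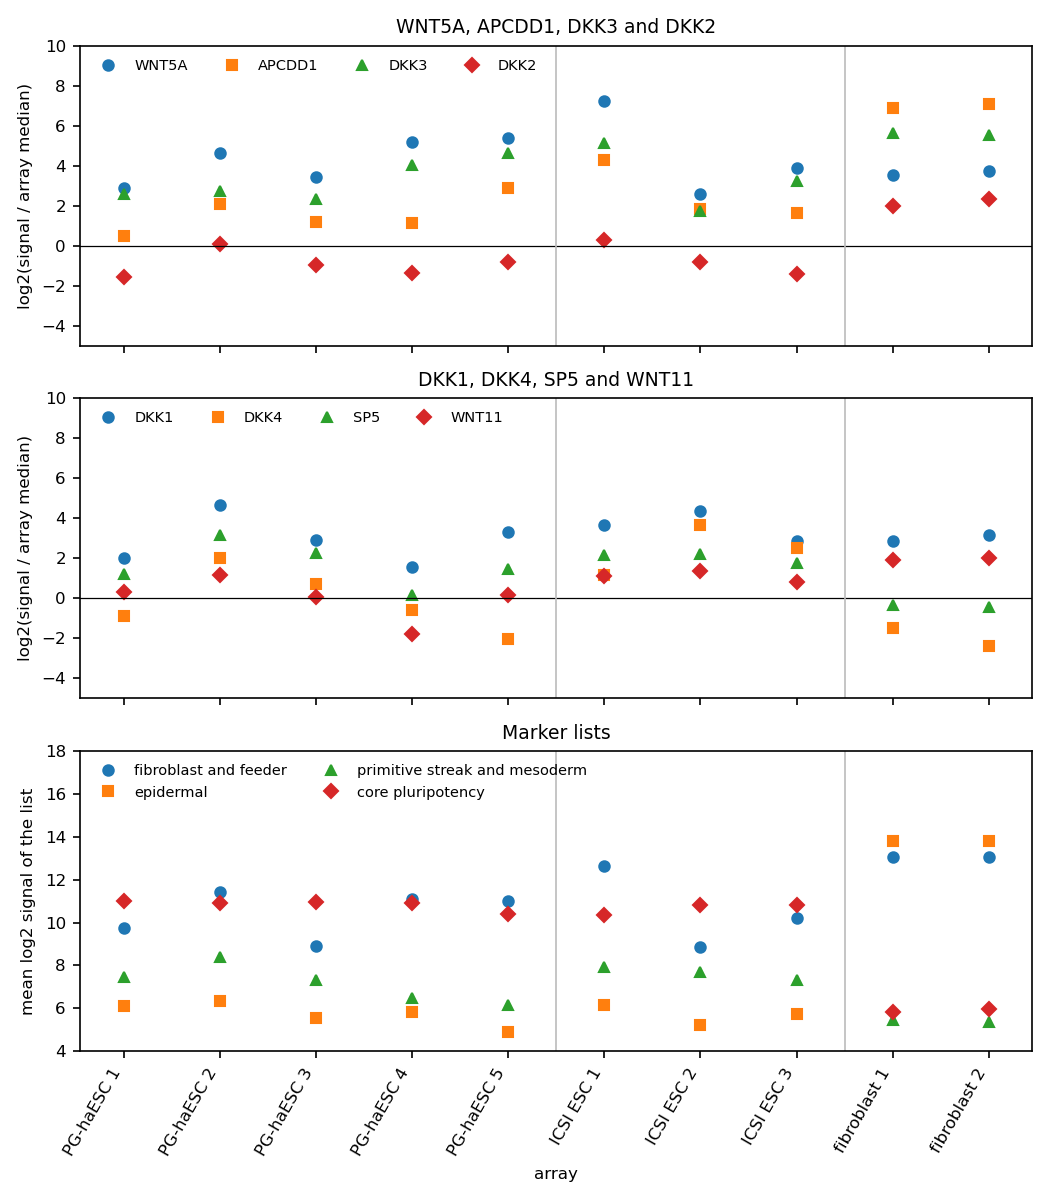
Log2 of signal over the array median (upper and middle panels) for 8 WNT genes and mean log2 signal of 4 marker lists (lower panel) on each array, with PG-haESC, ICSI ESC and fibroblast from left to right between the grey lines. WNT5A, APCDD1, DKK3 and DKK2 are highest among stem cell arrays on ICSI ESC 1, as is the fibroblast and feeder list, and DKK1 and SP5 are highest on PG-haESC 2, as is the primitive streak list.

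The wider WNT pathway was followed in 7 lists of genes, chosen with earlier results of these data known, and 0 of their 63 members tested were called between PG-haESC and ICSI ESC (limma, adjusted p under 0.05), where 0.507% of all genes were called higher and 0.0687% lower. At an unadjusted p under 0.05 there were 10 of 63 (15.9%), beside 8.79% of all genes. Against fibroblast 13 were higher and 9 lower in PG-haESC (20.6% and 14.3%, where 23.0% and 17.3% of all genes were), and 10 higher and 9 lower in ICSI ESC (15.9% and 14.3%, where 22.6% and 17.0% were), so the lists as a whole did not have more calls than all genes. Of 10 non-canonical receptors and planar polarity genes, 5 were higher and 1 lower in PG-haESC and 4 higher and 1 lower in ICSI ESC (median log2 change 0.84 and 1.00, against 0.06 and 0.08 over all genes). GPC4, a glypican (log2 change 2.97 in PG-haESC and 2.71 in ICSI ESC), ROR1, a WNT5A receptor (2.30 and 2.40), PRICKLE1, a core polarity protein (2.51 and 2.13), and PTK7, a pseudokinase co-receptor (1.02 and 1.57), were higher in both. DAAM1, a formin downstream of Dishevelled, was lower in both (-1.28 and -1.54).

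Of 8 other secreted or membrane WNT inhibitors tested, 3 were lower in each stem cell group, where 17.3% (PG-haESC) and 17.0% (ICSI ESC) of all genes tested were. SOSTDC1 (log2 change -5.27 in PG-haESC and -6.34 in ICSI ESC) and WIF1 (-4.31 and -5.26), which bind receptors and ligands, and the Dickkopf receptor KREMEN1 (-2.05 and -1.92) made up these 3. SOSTDC1 was dim on all 3 ICSI ESC arrays, so its difference there is known only as at least 30.7-fold, and KREMEN1 was dim on all but 1 array of each stem cell group. CER1, an inhibitor of nodal and WNT made by early endoderm, was higher in ICSI ESC, at least 26.8-fold (log2 change 7.24, adjusted p = 0.011). For PG-haESC it did not pass (3.88, adjusted p = 0.14). Of 4 R-spondin and LGR genes tested, RSPO3, dim in fibroblast, was at least 2.15-fold higher in PG-haESC (log2 change 2.08, adjusted p = 0.047). RSPO1 was lower in PG-haESC (log2 change -2.65, adjusted p = 0.045) and, dim on all 3 arrays, at least 6.14-fold lower in ICSI ESC (log2 change -4.39, adjusted p = 0.0033). R-spondins enhance WNT responses by clearing RNF43 and ZNRF3 from the membrane.

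Of 12 beta-catenin co-factors, 3 were higher and 1 lower in each stem cell group. Of all genes tested, 23.0% were higher and 17.3% lower in PG-haESC, and 22.6% and 17.0% in ICSI ESC. The corepressor genes CTBP2 (log2 change 2.37 in PG-haESC and 2.23 in ICSI ESC) and TLE1 (0.80 and 1.10) and the remodeller CHD8 (1.25 and 1.47) were higher, and CTNNBIP1, which blocks the binding of beta-catenin to TCF, was lower (-2.93 and -3.04). Of 17 other target genes tested, 3 were higher and 3 lower in PG-haESC and 2 higher and 3 lower in ICSI ESC, beside the same shares of all genes. CDX4, a homeobox gene of the posterior embryo, was dim on both arrays labelled fibroblast and was at least 4.19-fold higher in PG-haESC and at least 2.78-fold higher in ICSI ESC (log2 change 4.20 and 3.60). TBXT, the primitive streak gene brachyury, was at least 4.62-fold higher in ICSI ESC (log2 change 5.02). NOTCH2 (-1.79 and -2.32), EPHB3 (-2.27 and -1.67) and TNFRSF19 (-2.06 and -3.20) were lower in both. Of 10 destruction complex kinases and ubiquitin ligase genes, only AMER1, a membrane anchor of APC, passed, as higher in PG-haESC (1.41). Neither of the 2 ligand secretion genes, PORCN and WLS, passed. The medians of the lists other than the planar polarity one were between -1.11 and 0.47 on the log2 scale against fibroblast. All 13 epidermal genes passed as lower in both stem cell groups than on the arrays labelled fibroblast, and their part in these differences was not tested.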

How the data were processed

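The values were linear intensities, 1 per probe set and array, made by the authors with MAS5, per the submitters' processing notes, and the sources used here give no version. In the deposited table the trimmed mean of each array, with 2% left out at each end, was 500, so the authors had scaled the arrays to 1 level. No detection calls, slide or scan date were given, so no batch could be tested.

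Of 52865 probe sets, 158 were controls. In GEO's platform annotation 24956 had 1 gene symbol, 361 several and 27390 none, and genes were named only from probe sets with 1 symbol. Of the 46 WNT genes, 21 had 2 or more probe sets, and the 1 of highest mean log2 signal stood for the gene, and another probe set is described where it was called and the first was not.

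From the intensities, log2 values of the 34140 probe sets above their array's median on at least 2 arrays were fitted with limma 3.58.1 (R 4.3.3) as group means over all 10 arrays, with line as a random block (estimated correlation 0.286) and an intensity trend in eBayes. P-values were two-sided and Benjamini-Hochberg adjusted over all 34140 probe sets, and a gene was called under 0.05. Where all signals of a group were at or below the array medians, a fold is given as "at least", with those signals raised to the median. The fits were tested on simulated data. Plots were made with matplotlib 3.10.9 under Python 3.11.15.

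The members, the lists and the rule for named genes were chosen with earlier results of these data known. Signals on each array are given for the 6 genes higher and the 6 lower of smallest p between PG-haESC and ICSI ESC, for up to 8 called genes in each direction against fibroblast whose groups did not overlap, and for a set of pathway genes. From each other list up to 4 called genes of smallest p are named. Genes given beyond this rule were chosen after their values were seen.

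The alternatives were arrays as independent samples, the code in the labels as the block, arrays averaged per line, an offset of 32, quantile normalization, centring on array medians, no filter, a filter at the 75th percentile, dim signals set to the median, no intensity trend, robust eBayes, passage as a covariate, 1 mean over a gene's probe sets, a threshold of 1.5-fold, the compared groups alone, and each array left out in turn. The spike-in controls gave 1 more, chosen after the data were seen.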

Additional observations from a re-analysis of the deposited data

Results flagged for a closer look

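Of the 26 WNT genes given with every array, 2 had a PG-haESC array far from the other 4, by the gap to the nearest array as a share of the group's range on the log2 scale. Chance alone sets apart about 1 group in 20. DKK2 was highest on PG-haESC 2, with a signal of 142 against 32.4 to 44.2 on the other PG-haESC arrays, and a gap of 0.79 of the range. FZD10 was highest on PG-haESC 5, the only array of line MPH2, with 2522 against 475 to 676 and a gap of 0.789 of the range. The WNT genes outside these 26 were not screened, and some of them also had a PG-haESC array far from the others. FZD4 had 369 on PG-haESC 5 against 871 to 988, SFRP4 1466 on PG-haESC 5 against 765 to 863, and DVL2 67.1 on PG-haESC 2 against 215 to 269.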

How the results depend on the processing

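The number of WNT genes called between PG-haESC and ICSI ESC, 0 of 38, became 1 (RNF43) with arrays as independent samples, 0 to 1 with each array left out in turn (1 without ICSI ESC 1, RNF43) and 2 (RNF43 and DKK4) without the 2 arrays of highest spike-in signal, an alternative chosen after the data were seen. It was 0 under the other alternatives. Between PG-haESC and fibroblast 16 genes were called. With the filter at the 75th percentile, which left 24 WNT genes to test, 10 were called, and with each array left out the count ran from 9 (without fibroblast 2) to 20 (without ICSI ESC 1). The other alternatives gave 11 to 20. Between ICSI ESC and fibroblast 13 genes were called, 11 to 16 with each array left out and 10 to 17 over the 25 alternatives that could be fitted, since the fit of ICSI ESC and fibroblast alone could not be fitted. Called under all 26 alternatives for PG-haESC against fibroblast were 7 of the 16 genes (APCDD1, FZD5, FZD7, SFRP1, SFRP2, TCF7L1 and WNT3), and under all 25 for ICSI ESC against fibroblast 6 of the 13 (FZD5, FZD6, SFRP1, SFRP2, TCF7L1 and WNT3). With passage as a covariate the calls of AXIN2, DKK2, TCF7, WNT8A, WNT10A and WNT16 were lost for PG-haESC against fibroblast, and those of APCDD1, AXIN2, DKK2, DKK4 and FZD7 for ICSI ESC against fibroblast, while SFRP4 as lower and WNT5B as higher were gained in both. The log2 changes of TCF7, WNT10A and WNT16 in PG-haESC were then 0.80, -4.84 and -5.52, and that of DKK2 was -1.70, against -3.39 without the covariate. The arrays labelled fibroblast were at passages 14 and 15 and all stem cell arrays at passages 4 to 12, without overlap. Passage and group therefore cannot be told apart in the comparisons with fibroblast, and values with this covariate reach beyond the passages that the groups share. Centring on array medians moved the median log2 change of all genes to 0.39 for PG-haESC and 0.36 for ICSI ESC against fibroblast, and quantile normalization to 0.24 for both, from 0.06 and 0.08.

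The following log2 changes turned in sign, and the cause was not tested. Between PG-haESC and ICSI ESC, with each array left out in turn, TCF7L1 ran from -0.35 to 0.02, SFRP1 from -0.46 to 0.06, SFRP2 from -0.25 to 0.40, WNT5A from -1.32 to 1.27 and LRP6 from -0.11 to 0.32. Averaged over a gene's probe sets, SFRP1 was 0.12, WNT5A 0.16 and LRP6 -0.33. WNT5A was 0.02 with arrays averaged per line. Without the 2 arrays of highest spike-in signal, WNT5A was 1.12 and LRP6 -0.18. Between PG-haESC and fibroblast, FZD8 was -0.15 with dim signals set to the median, DKK1 was 0.61 with passage as a covariate, and averaged over probe sets RNF43 was -0.27 and LRP6 -2.34 (adjusted p = 0.0026). Between ICSI ESC and fibroblast, WNT5A ran from -0.84 to 1.80 with each array left out and was -0.84 without the 2 arrays of highest spike-in signal, and LRP6 was -0.07 with passage as a covariate and -2.01 averaged over probe sets (adjusted p = 0.0066).

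No paired analysis was possible because the numbers of the ICSI ESC arrays name cell lines and those of the arrays labelled fibroblast name repeats under 1 line name. Signals at or below an array's median could not be told from background without detection calls, so calls with a dim side, among them those of FZD8, WNT8A, WNT10A, WNT16, DKK2 and DKK4 and, in the other lists, CDX4, RSPO1, RSPO3, SOSTDC1, CER1, TBXT and KREMEN1, rest on values of which that side is only a bound.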

Other observations

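In the other pathway lists, 3 genes known from the primitive streak, early endoderm or stem cells had lower signals in PG-haESC than in ICSI ESC without passing, and they were named after their values were seen. CER1, the nodal and WNT inhibitor, had a log2 change of -3.36 (adjusted p = 0.67), TBXT, brachyury, of -3.11 (adjusted p = 0.48), and LGR5, an R-spondin receptor, of -2.53 (adjusted p = 0.63). CER1 and LGR5 overlapped between the groups, as their highest PG-haESC signals (6310 and 2321) lay above the ICSI ESC medians (2129 and 1625). The pathway lists that hold these 3 genes had median log2 changes between 0.18 and 0.23 for PG-haESC over ICSI ESC. Among the marker lists, the median was -1.6 for endoderm, -0.95 for primitive streak and mesoderm and 0.66 for neuroectoderm. No gene of these marker lists passed between the 2 stem cell groups, so the direction of the 3 genes was also that of the endoderm and primitive streak lists.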
